A study of Mus musculus with 3 samples.

Results

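The genes that carry and receive Wnt signals were described in mouse embryonic fibroblasts (MEFs) that lack endogenous β-actin and carry a β-actin tagged with a nuclear localization signal (NLS), here called KO-actin cells. Members were chosen by gene symbol and comprised the Wnt ligands, the Frizzled receptors, the secreted Sfrp and Dkk inhibitors, Lrp5, Lrp6, Ror1, Ror2, Ryk and Axin2, which came to 43 of the 46603 genes counted. Polyadenylated RNA was sequenced from 3 libraries, all with the genotype Beta-actin KO-NLS, numbered as replicates 1 to 3. They form 1 condition, so the values below are levels in these cells and no fold change against wild-type or knockout MEFs was computed. The labels do not say whether the libraries came from separate cultures, so the spread between them may be technical, and the promoter that drove the NLS-tagged β-actin is not given in the sources used here.

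Wnt proteins are secreted, lipid-modified signals that bind the Frizzled family of seven-pass receptors together with a co-receptor. With Lrp5 or Lrp6, binding stabilizes β-catenin, which then acts with TCF and LEF factors on target genes such as Axin2. With Ror1, Ror2 or Ryk, Wnt proteins can act on cell shape and polarity without β-catenin. Sfrp proteins bind Wnt outside the cell and most Dkk proteins block Lrp5 and Lrp6. In mesenchymal cells these signals are known for their part in patterning, fibrosis and the choice between bone and fat.

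The libraries held 49932446, 49587453 and 44383636 counts, and each gene is given as CPM, its counts in every 1000000 of the library, after TMM scaling. A gene was called above the floor in a library where it had over 3 counts, since a level of up to 3 counts can give a count of 0. This floor was at most 0.0673 CPM and covers counting error only. Actb itself had 1078, 1111 and 1066 CPM in replicates 1 to 3. Counts by gene do not separate the NLS-tagged β-actin from the endogenous gene, and the source of these reads was not tested. Of 12 fibroblast markers 11 passed the floor in each library, with Col1a1 at 4057 ± 252 CPM (SD, n = 3), while Lum had 0 counts and Dcn 8, 8 and 6. A mean of at least 1 CPM was reached by 9 of them, with Col1a2 at 20.99, Pdgfra at 4.97 and Thy1 below it at 0.836. The floor was also passed by 6 of 7 smooth muscle markers, with Acta2 at 6606 CPM, and by 6 of 6 neuronal markers. The median level was 77.9 CPM for the fibroblast, 95.2 for the smooth muscle and 2.30 for the neuronal list. Passing the floor therefore does not set fibroblasts apart. Replicate 2 stood apart from the other libraries, with a chi-square per gene of 11.1 and 10.6 against replicates 1 and 3, which differed from each other by 3.72. Its median log2 deviation from the other libraries was 0.10 over the 3180 tested genes with at least 55% GC and -0.10 over the 3416 with at most 45%. A value near 1 is the level of sampling noise, so no pair agreed within it, and each was kept as a separate sample.

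Of the 43 members, 25 were above the floor in every library, 13 had at most 3 counts in every library, as did 35.9% of protein-coding genes, and 5 lay on both sides. The 25 make up 58.1% of the members, close to the 58.9% of protein-coding genes above the floor. The receptors and the ligands differed in how many were found. Of 10 Frizzled receptors 9 were above the floor, against 9 of 19 Wnt ligands. Of 4 Sfrp genes 2 were above it, Sfrp2 and Sfrp4, and 0 of 4 Dkk genes were. A mean of at least 1 CPM was reached by 21 of the 43, which were 5 ligands, 9 Frizzled receptors, 4 other receptors, Sfrp2, Sfrp4 and Axin2. Over protein-coding genes 52.1% had such a mean. The median of the mean CPM was 0.646 over the members and 1.91 over protein-coding genes.

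**Figure D1:**
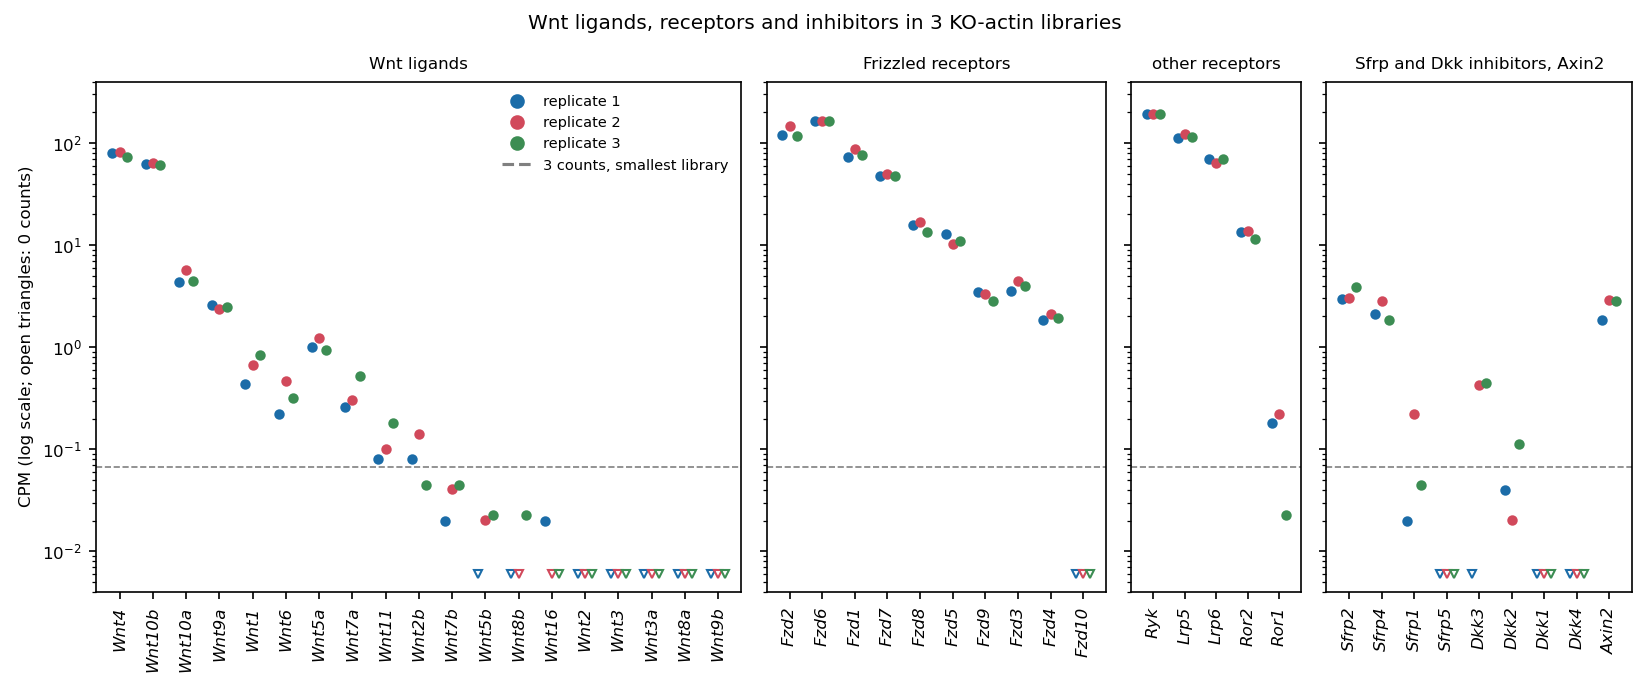
CPM on a log axis for each of the 43 members by family, with 1 point per library and open triangles for 0 counts; the dashed line marks 3 counts in the smallest library (0.0673 CPM). Wnt4 and Wnt10b stand above the other 17 ligands, and 9 of the 10 Frizzled receptors lie above the line.

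Among the ligands, Wnt4 and Wnt10b carried most of the reads. Wnt4 (ENSMUSG00000036856), a ligand known from kidney and gonad development, spans chr4:137277489-137299726 on the plus strand of GRCm38, the build used throughout. It had 80.1, 80.9 and 72.7 CPM in replicates 1 to 3, with replicate 3 the lowest. Wnt10b (ENSMUSG00000022996), a ligand known to hold back fat cell formation through β-catenin, lies on chromosome 15 from 98770712 to 98778150 on the minus strand. Its 3 libraries had 62.2, 63.9 and 60.8 CPM, close to each other.

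Levels of different genes were compared as CPM per kilobase of annotated exon. On this scale Wnt4 had 18.6 ± 1.08 and Wnt10b 18.3 ± 0.449 (SD, n = 3), and their libraries overlapped. The ratio of Wnt4 to Wnt10b per kilobase lay between 0.969 and 1.04 in the 3 libraries, so which of them was higher was not settled by these data. When the length of the longest transcript was used in place of all exons, Wnt10b led with 51.1% of the summed ligand level, and it also led with 45.6% without replicate 1. Together the pair held 91.5% ± 0.808 (SD, n = 3) of the summed level of all 19 ligands per kilobase, with 46.0% ± 1.13 for Wnt4 alone. The level per kilobase of Wnt4 was above that of 85.5% of protein-coding genes and that of Wnt10b above 85.3%.

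A second tier of ligands was clearly above the floor but far lower. Wnt10a, the closest relative of Wnt10b and a gene known from tooth and skin development, had 4.37, 5.73 and 4.40 CPM, with replicate 2 the highest. Per kilobase it reached 1.96 ± 0.315 (SD, n = 3), and Wnt10b exceeded it 8.09-fold to 10.3-fold in the 3 libraries. Wnt9a, known from joint formation, had 2.58, 2.37 and 2.49 CPM and the smallest spread of this tier. Wnt5a, the ligand best known for signalling through Ror2 without β-catenin and for limb outgrowth, had 1.001, 1.23 and 0.943 CPM. Wnt5a has the longest exons of the ligands, 7.82 kb, so that per kilobase it had 0.135 ± 0.0197 (SD, n = 3) and its mean lay below those of Wnt1 and Wnt6, although its libraries overlapped those of Wnt6. Wnt9a per kilobase was 4.51-fold to 6.21-fold above Wnt5a.

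At the low end, Wnt1, Wnt6, Wnt7a and Wnt11 passed the floor in each library at a mean under 1 CPM. Wnt1, known from midbrain development, had 22, 33 and 37 counts, and Wnt7a, a limb and nervous system ligand, had 13, 15 and 23. Wnt6 had 11, 23 and 14 counts and Wnt11, known from heart and kidney development, had 4, 5 and 8. The Wnt11 counts are uncertain, because 8.8% of its exonic bases are also covered by Gm8398 on the opposite strand. Smaller shares of exonic bases were covered on the opposite strand in Wnt7b (6.6%), Wnt5a (4.6%), Axin2 (3.8%) and Fzd6 (3.2%). Wnt2b crossed the floor, with 4, 7 and 2 counts. Per kilobase, the lowest Wnt1 library, at 0.185 CPM, lay above the highest of Wnt5a, at 0.158, and of Wnt7a, at 0.163. The libraries of Wnt6 overlapped those of Wnt1, Wnt5a and Wnt7a, and those of Wnt5a and Wnt7a overlapped each other. Over the 18 steps in the order of the ligands, 4 separated a ligand above the floor in each library from the next without overlap, which were Wnt10b from Wnt10a, Wnt10a from Wnt9a, Wnt9a from Wnt1 and Wnt7a from Wnt11.

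The other 9 ligands had at most 3 counts in every library and were not detectable at this depth. Wnt2, Wnt3, Wnt3a, Wnt8a and Wnt9b had 0 counts in each library. Wnt3a, the ligand most used to switch on β-catenin in culture, was among them, so its level was at most 0.0244 CPM per kilobase in the smallest library. Wnt5b, the close relative of Wnt5a, had 0, 1 and 1 counts, Wnt7b had 1, 2 and 2, Wnt8b 0, 0 and 1, and Wnt16 1, 0 and 0. For comparison, 26.2% of protein-coding genes had 0 counts in every library.

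Several ligand genes lie next to each other, and 4 such pairs had gaps of at most 100 kb. Wnt10b and Wnt1 point away from each other on chromosome 15, 11.7 kb apart, and Wnt10b was 51.2-fold to 98.8-fold above Wnt1 per kilobase. Wnt3a and Wnt9a point away from each other on chromosome 11, 16.2 kb apart, and Wnt9a was at least 30.7-fold above the floor of 3 counts per library that applies to Wnt3a. Wnt6 and Wnt10a are on the same strand of chromosome 1, 6.19 kb apart, with 0.152 ± 0.0565 and 1.96 ± 0.315 CPM per kilobase (SD, n = 3). The libraries of the pair did not overlap in any of these 3 cases. In the fourth pair, Wnt9b and Wnt3 on chromosome 11 with a gap of 24.3 kb, both genes had 0 counts. The exons of these 8 genes overlap no other annotated gene.

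**Figure D2:**
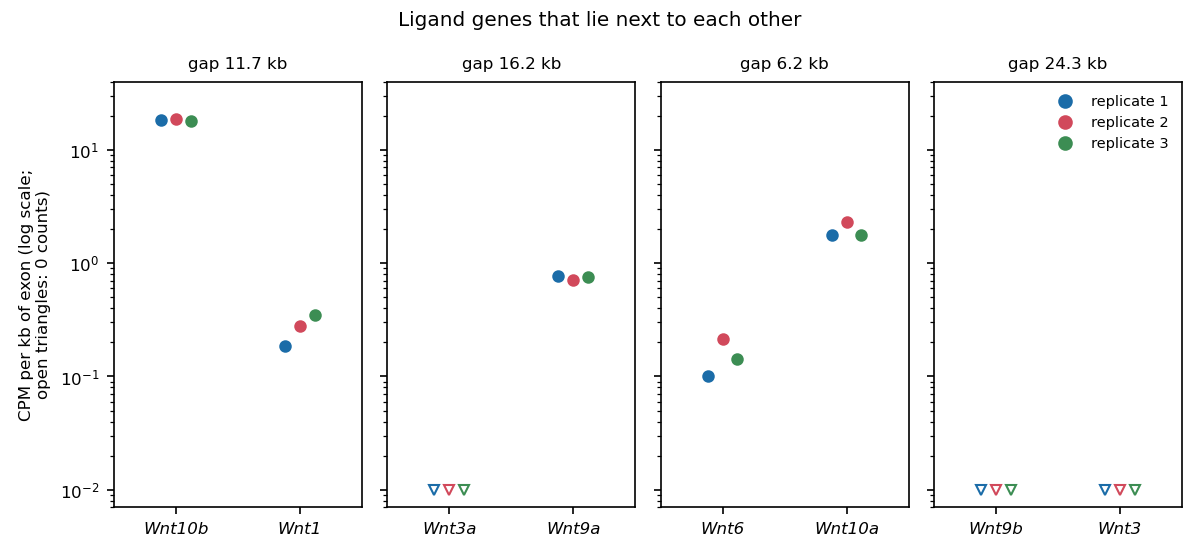
CPM per kilobase of exon on a log axis for the 4 pairs of ligand genes that lie within 100 kb of each other, with 1 point per library and open triangles for 0 counts. Wnt10b, Wnt9a and Wnt10a lie above their neighbours in every library, and Wnt9b and Wnt3 were at 0.

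For the pairs in which neighbours differed most, the bases just upstream of the RefSeq start sites (GRCm38.p6) are shown to set the 2 starts of each pair side by side. CpG dinucleotides, whose density marks a class of mammalian promoters, are in capitals, and only bases outside the annotated gene are printed, 5′ to 3′ on the strand of the gene.
Wnt10b, chr15:98778151-98778400, minus strand: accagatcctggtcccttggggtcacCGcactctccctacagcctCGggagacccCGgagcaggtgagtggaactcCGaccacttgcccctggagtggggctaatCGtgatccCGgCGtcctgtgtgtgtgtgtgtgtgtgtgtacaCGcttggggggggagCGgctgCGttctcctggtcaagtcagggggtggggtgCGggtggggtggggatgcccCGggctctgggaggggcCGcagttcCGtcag
Wnt1, chr15:98789607-98789856, plus strand: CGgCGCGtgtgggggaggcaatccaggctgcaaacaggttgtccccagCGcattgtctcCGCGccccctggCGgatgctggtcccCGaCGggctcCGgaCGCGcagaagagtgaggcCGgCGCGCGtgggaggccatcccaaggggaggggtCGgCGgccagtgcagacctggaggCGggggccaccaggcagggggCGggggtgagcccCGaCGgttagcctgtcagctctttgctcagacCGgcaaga
Wnt9a, chr11:59306680-59306927, plus strand: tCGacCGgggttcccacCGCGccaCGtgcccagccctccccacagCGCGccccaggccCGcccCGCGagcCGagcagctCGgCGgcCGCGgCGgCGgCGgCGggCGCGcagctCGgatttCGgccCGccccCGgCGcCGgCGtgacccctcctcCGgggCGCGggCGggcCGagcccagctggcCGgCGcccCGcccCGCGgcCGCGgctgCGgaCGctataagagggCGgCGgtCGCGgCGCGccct
Wnt3a, chr11:59290753-59291001, minus strand: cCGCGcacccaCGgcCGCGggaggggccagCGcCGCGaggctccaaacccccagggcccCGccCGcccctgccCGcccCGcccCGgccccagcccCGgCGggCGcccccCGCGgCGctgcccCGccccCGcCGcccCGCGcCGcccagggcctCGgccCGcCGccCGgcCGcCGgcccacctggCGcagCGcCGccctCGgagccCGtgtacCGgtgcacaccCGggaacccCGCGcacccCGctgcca
The run of Wnt10b holds 14 CpG in 250 bases and that of Wnt1 holds 23, so the gene with the higher level had the fewer. Wnt9a holds 48 CpG in 248 bases and Wnt3a, at 0 counts, 41 in a run that is 1 base longer. An entry in the promoter table was present for 29 of the 43 members. Taking the start with the most CpG for each gene, the 250 bases upstream held a median of 26.5 CpG, from 12 to 48, in the 16 members above the floor in every library. The 10 members with at most 3 counts in every library had a median of 21, from 5 to 41. Over all 32851 entries the median was 6, but there a gene with several starts has several entries. The values of the members, which use the start with the most CpG, are therefore not a like measure. Wnt4 had 44, and Fzd1 had 12, the lowest of the members above the floor. These counts describe the letters of the windows and say nothing of methylation or binding.

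The Frizzled receptors were led by Fzd2 and Fzd6. Fzd2 (ENSMUSG00000050288), on chromosome 11 from 102604396 to 102608058, had 120.5, 146 and 117 CPM, with replicate 2 above both others. Fzd6 (ENSMUSG00000022297), a receptor known from hair and skin patterning by planar polarity, lies on chromosome 15 from 39006034 to 39038188. It had 164, 165 and 165 CPM, so that its libraries hardly differed. Per kilobase Fzd2 had 34.9 ± 4.35 and Fzd6 34.2 ± 0.179 (SD, n = 3), and the libraries of the pair overlapped. Fzd2 led with 33.3% ± 1.98 (SD, n = 3) of the summed Frizzled level, but Fzd6 led with 35.2% when the longest transcript gave the length, with 36.3% by CPM alone and with 33.9% without replicate 2. Fzd1 followed with 18.7 ± 1.80 CPM per kilobase and Fzd7, which is close to Fzd1 and Fzd2 in sequence, with 10.6 ± 0.373 (SD, n = 3).

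These 4 receptors held 94.0% ± 0.445 (SD, n = 3) of the summed Frizzled level per kilobase. Fzd1 had 72.7, 87.1 and 75.9 CPM, and Fzd7 had 47.0, 49.9 and 47.0 CPM. Fzd6 was 1.65-fold to 1.96-fold above Fzd1, and Fzd1 was 1.67-fold to 1.88-fold above Fzd7, with no overlap between libraries at either step. Fzd8 and Fzd5 followed, at 2.58 ± 0.290 and 1.64 ± 0.197 CPM per kilobase (SD, n = 3). The Fzd5 value is uncertain, because 17.8% of its exonic bases are also covered by Gm38058 on the opposite strand and the strand setting of the counting is not given. Fzd9, Fzd3 and Fzd4 had means of 3.19, 3.99 and 1.97 CPM. Fzd3 has 12.8 kb of exon, which put it at 0.312 ± 0.0379 CPM per kilobase (SD, n = 3), next to Fzd4, a receptor known from retinal vessels, at 0.293 ± 0.0215. Their libraries overlapped, and Fzd2 was 111-fold to 126-fold above Fzd4. Fzd10 had 0 counts in each library. Most Frizzled genes lack introns, and 6 of the 10 had a longest transcript with 1 exon, which were Fzd1, Fzd2, Fzd7, Fzd8, Fzd9 and Fzd10.

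Of the other receptors, Ryk, an atypical kinase-dead receptor for Wnt, had the highest level per kilobase of all 43 members. It lies on chromosome 9 from 102834917 to 102908305 and had 194, 193 and 193 CPM. Per kilobase this was 42.6 ± 0.204 (SD, n = 3), a level above that of 94.0% of protein-coding genes, and Ryk was 1.07-fold to 1.33-fold above Fzd2. Lrp5 had 111, 121 and 114 CPM and Lrp6 69.3, 63.9 and 69.2 CPM. Replicate 2 was the highest library for Lrp5 and the lowest for Lrp6. The co-receptors for β-catenin signalling did not overlap, with Lrp5 2.25-fold to 2.67-fold above Lrp6 per kilobase.

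The paralogous Ror receptors differed far more than Lrp5 and Lrp6. Ror2, known from skeletal growth and as a receptor for Wnt5a, had 669, 684 and 506 counts, or 13.4, 13.8 and 11.4 CPM. Ror1 had 9, 11 and 1 counts and was above the floor in replicates 1 and 2 alone. Per kilobase Ror2 was 84.5-fold to 687-fold above Ror1, and the upper end of that range rests on the single count of Ror1 in replicate 3. All 4 steps in the order Ryk, Lrp5, Lrp6, Ror2 and Ror1 separated neighbours without overlap.

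**Figure D3:**
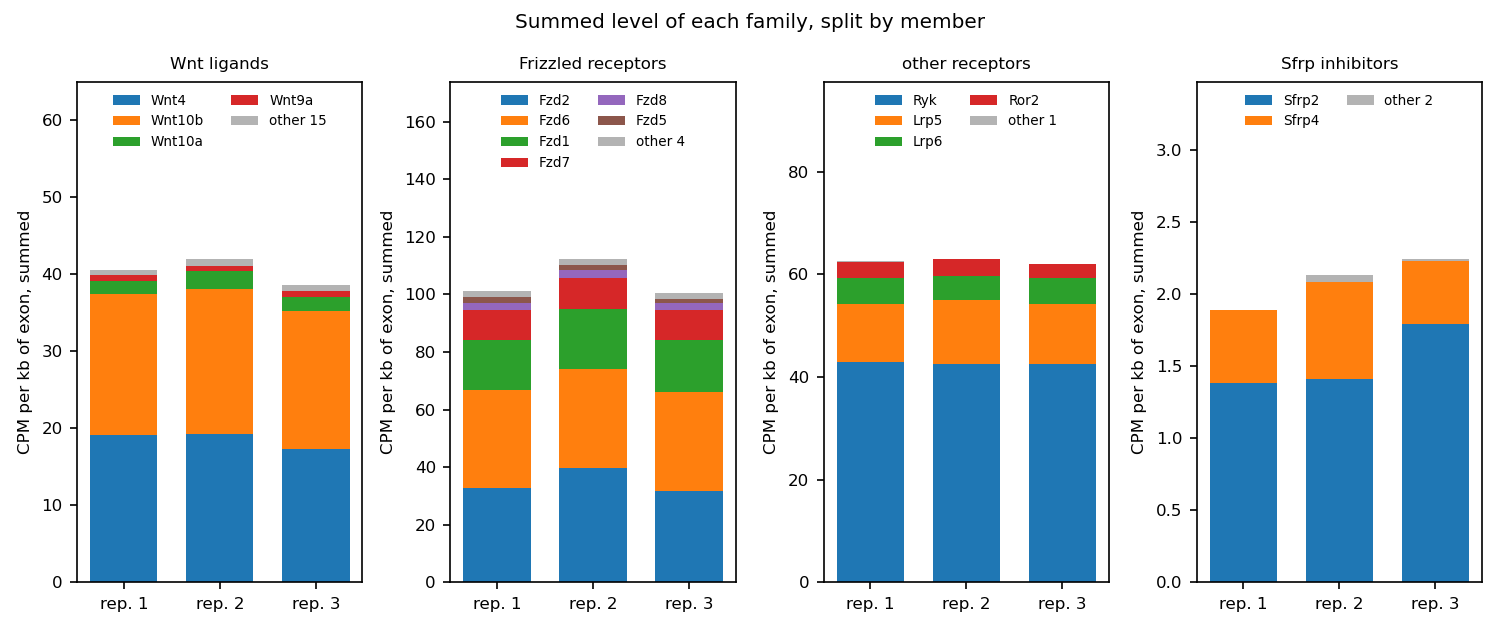
Summed CPM per kilobase of exon for 4 families in each library, as bars from 0 split by member, with the lowest members pooled in grey. Wnt4 and Wnt10b made up 91.5% of the ligand sum, and Ryk 68.2% of the sum of the other receptors.

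The secreted inhibitors were low. Sfrp2, which is common in embryonic mesenchyme, had 2.98, 3.04 and 3.86 CPM, and Sfrp4 had 2.10, 2.81 and 1.84. Per kilobase Sfrp2 was 2.09-fold to 4.07-fold above Sfrp4 and held 73.1% ± 6.92 (SD, n = 3) of the Sfrp sum. Part of the Sfrp2 value is uncertain, since 16.1% of its exonic bases are also covered by Gm26771 on the opposite strand. Sfrp5 had 0 counts in each library. Sfrp1 had 1, 11 and 2 counts, with replicate 2 alone above the floor. Of 18 markers of blood, epithelial and endothelial cells, 10 had their highest CPM in replicate 2. By list this held for 5 of 6 epithelial, 3 of 6 blood and 2 of 6 endothelial markers. The same share over all genes was not computed. Lyz2 had 1, 12 and 2 counts, Cdh1 4, 12 and 1 and Tek 2, 10 and 3, whereas Spi1 had 7, 12 and 14, Hbb-bs 4, 2 and 14 and Pecam1 6, 5 and 6. These 6 were chosen after their values were seen. Ptprc, Epcam and Cdh5 had at most 1 count in any library. In the same lists the mean level was 44.1 CPM for Krt19, 37.9 for Krt18 and 1.48 for Krt8. It was 11.3 CPM for Cd74, 2.70 for Vwf and 2.09 for Kdr. The summed level of these lists ranged from 10.95 to 12.9 CPM for 6 blood markers, from 80.5 to 88.6 for 6 epithelial markers and from 4.77 to 5.49 for 6 endothelial markers, of which 2, 3 and 3 were above the floor in every library. The part of such cells in the Sfrp1 counts was not tested.

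Dkk1 and Dkk4, both known as feedback targets of β-catenin, had 0 counts in each library, and Dkk2 had 2, 1 and 5. Dkk3, a divergent relative that is not known as a blocker of Lrp5 and Lrp6, had 0 counts in replicate 1 but 21 in replicate 2 and 20 in replicate 3. These are 0.425 and 0.449 CPM, against a limit of 0.0601 CPM that a count of 0 allows in replicate 1. The exons of Dkk3 overlap no other annotated gene and share no run of 50 bases with one. Together, the Sfrp and Dkk genes summed to 5.45% ± 0.767 (SD, n = 3) of the ligand sum per kilobase. The Frizzled sum was 2.59 ± 0.0903 times the ligand sum (SD, n = 3), with 104.5 ± 6.66 against 40.3 ± 1.67 CPM per kilobase.

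Axin2 encodes a scaffold of the complex that destroys β-catenin, and its transcription is a common readout of the β-catenin branch. It lies on chromosome 11 from 108920349 to 108950783 and had 93, 142 and 126 counts, or 1.86, 2.87 and 2.83 CPM, with replicate 1 below both others. The level of 0.458 ± 0.104 CPM per kilobase (SD, n = 3) was above that of 49.8% of protein-coding genes.

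Whether a member differed between libraries by more than counting error was tested with a chi-square over the 13814 genes that had 10 or more counts in each library, with Benjamini-Hochberg adjustment. Of these genes 43.8% were called at an adjusted p threshold of 0.05. Among the members 24 could be tested and 11 were called, or 45.8%, near the share of all genes. The test compares libraries of the same condition and not conditions. Called were Wnt4 and Wnt10a, Fzd1, Fzd2, Fzd5 and Fzd8, Lrp5, Lrp6 and Ror2, Sfrp4, and Axin2. Fzd2 had the smallest adjusted p of the members, 3.9e-40 in this chi-square test, with a highest library 1.25-fold above the lowest. For Fzd1 the chi-square test gave an adjusted p of 7.1e-15 and for Axin2 0.00578. Ryk and Fzd6 did not pass the test although they had among the most reads, with adjusted p of 0.85 for each and a highest library 1.01-fold above the lowest. A difference of over 1.5-fold between the highest and the lowest library was found in 5 of the 24, which were Wnt1, Wnt6, Wnt7a, Sfrp4 and Axin2, and in 9.58% of all tested genes. Wnt1, Wnt6 and Wnt7a had low counts and did not pass the chi-square test, with adjusted p of 0.109, 0.173 and 0.151. Their folds were therefore not told apart from counting error.

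Replicate 2 was the library farthest from the others for 6 of the 11, which were Fzd1, Fzd2, Lrp5, Lrp6, Sfrp4 and Wnt10a. The same share over all called genes was not computed. Since replicate 2 also stood apart over all tested genes, the 6 are not read as a trait of the members. Without replicate 2 the number called fell to 3, Axin2, Ror2 and Wnt4, against 12.5% of all genes tested then. GC content moved with this library. The transcripts of the 24 tested members had a median of 54.3% GC against 49.9% over all tested genes, and the median log2 deviation of replicate 2 was 0.13 for the members and 0.00 for all genes. With expected counts taken within 50 bins of GC content, 8 members were called against 30.0% of all genes. Wnt10a, with 63.8% GC, had an adjusted p of 0.35 in that chi-square test and Lrp6, with 46.0% GC, one of 0.397. Lrp5 and Ror2 also lost the call within bins, at an adjusted p of 0.0515 and 0.0858. Fzd3, with 40.3% GC, was called within bins, at an adjusted p of 0.0195. Fzd2 and Fzd1 kept it, with log2 deviations of replicate 2 of 0.30 and 0.23.

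**Figure D4:**
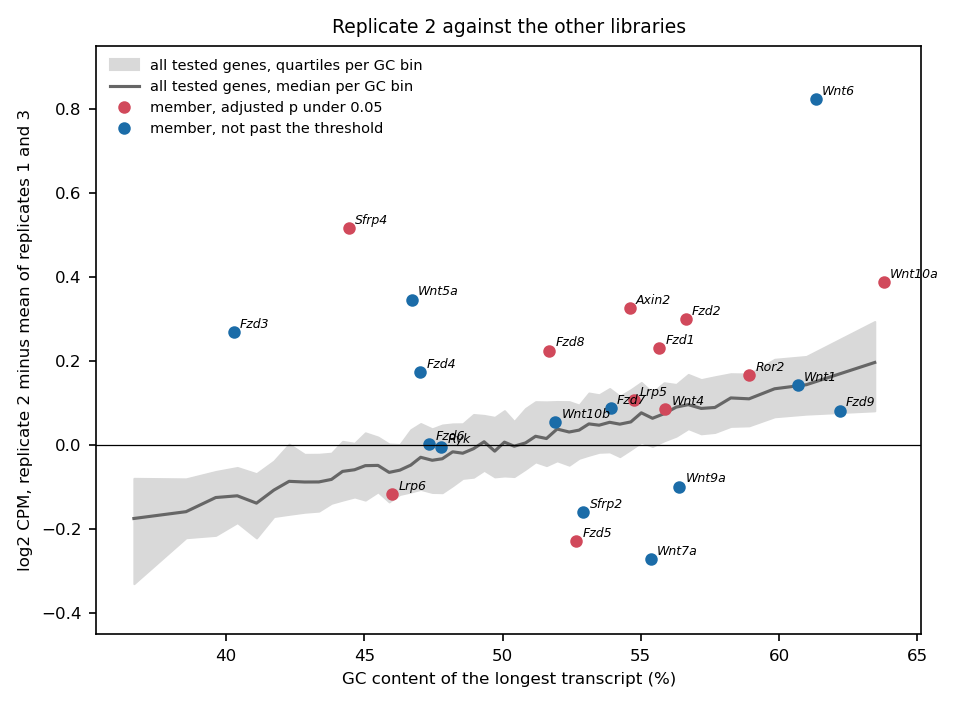
Log2 CPM of replicate 2 minus the mean of replicates 1 and 3, against the GC content of the longest transcript in percent, for the 24 tested members as named points. The grey line and band give the median and quartiles of all tested genes in 50 bins of GC content, and Fzd1, Fzd2, Sfrp4 and Axin2 are among the points above the band while Fzd5 is among those below it.

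The rest of the pathway was read from lists of its other genes, in CPM per kilobase as mean ± SD (n = 3) unless counts are given. Wls, the carrier that brings Wnt proteins to the cell surface, had 34.1 ± 1.09 and Porcn, the enzyme that adds their lipid, 2.34 ± 0.213. The cytoplasmic relay and destruction complex list had 10 of 10 genes above the floor in every library, with a median level of 134 CPM. Ctnnb1, which encodes β-catenin, was the highest of them at 139 ± 1.96 CPM per kilobase. Axin1, the constitutive relative of Axin2, had 41.1 ± 0.887 against 0.458 ± 0.104 for Axin2. Of the nuclear effectors 9 of 9 were above the floor. Pygo2, which links β-catenin to transcription, was the highest of them at 28.5 ± 0.968. Among the TCF and LEF factors Tcf7 had 18.9 ± 0.777, Tcf7l1 6.38 ± 0.557, Tcf7l2 2.60 ± 0.0345 and Lef1 0.238 ± 0.0770. Lef1 had 86, 83 and 128 counts, with replicate 3 above both others.

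R-spondins raise Frizzled levels at the surface by drawing the ligases Znrf3 and Rnf43 to Lgr receptors. In this module 6 of 9 genes were above the floor, with Lgr4 at 6.27 ± 0.164 and Znrf3 at 3.06 ± 0.0876 CPM per kilobase the highest (SD, n = 3). Rspo1, Rspo4 and Lgr5 had 0 counts in each library, while Rspo2 had 191, 195 and 136 counts and Rspo3 141, 119 and 115. Of 9 other extracellular inhibitors 4 were above the floor. They were Trabd2b, which encodes a protease that cleaves Wnt, at 7.87 ± 0.303 CPM per kilobase, Kremen1, a receptor for Dkk proteins, at 7.82 ± 0.377, Apcdd1 at 1.91 ± 0.146 and Notum, which removes the lipid of Wnt, at 0.844 ± 0.0642 (SD, n = 3). Frzb, an Sfrp relative whose symbol the choice of members does not cover, had 0, 3 and 6 counts. Wif1 had 1, 2 and 1, Kremen2 1, 2 and 0, and Sost and Sostdc1 had 0 in each library.

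In the list of feedback targets of β-catenin 11 of 16 genes were above the floor, with a median level of 2.72 CPM beside 1.91 CPM for protein-coding genes. Myc and Ccnd1, which respond to many other inputs, had 54.2 ± 3.68 and 33.1 ± 0.756 CPM per kilobase (SD, n = 3). Sp5, Lgr5, Dkk1 and Dkk4 had 0 counts in each library, and Nkd1 had 3, 5 and 3. This list shares Dkk1, Dkk4 and Axin2 with the members and several genes with the other lists. Of 13 genes of planar cell polarity and of receptors that act without β-catenin, 10 were above the floor. Ptk7 had the highest level at 26.0 ± 1.34 CPM per kilobase, followed by Vangl1 at 6.95 ± 0.414 (SD, n = 3). Celsr3 had 3, 3 and 4 counts, Dact1 2, 1 and 9, and Musk 0, 0 and 1. Of the genes that could be tested, the chi-square test called as varying between libraries 1 of 2 for Wnt secretion, 0 of 6 for the R-spondin module, 2 of 4 other inhibitors, 8 of 10 of the cytoplasmic list, 6 of 9 nuclear effectors, 6 of 11 feedback targets and 5 of 9 planar polarity genes, beside the 43.8% of all genes. Differences between the lists were not tested.

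**Figure D5:**
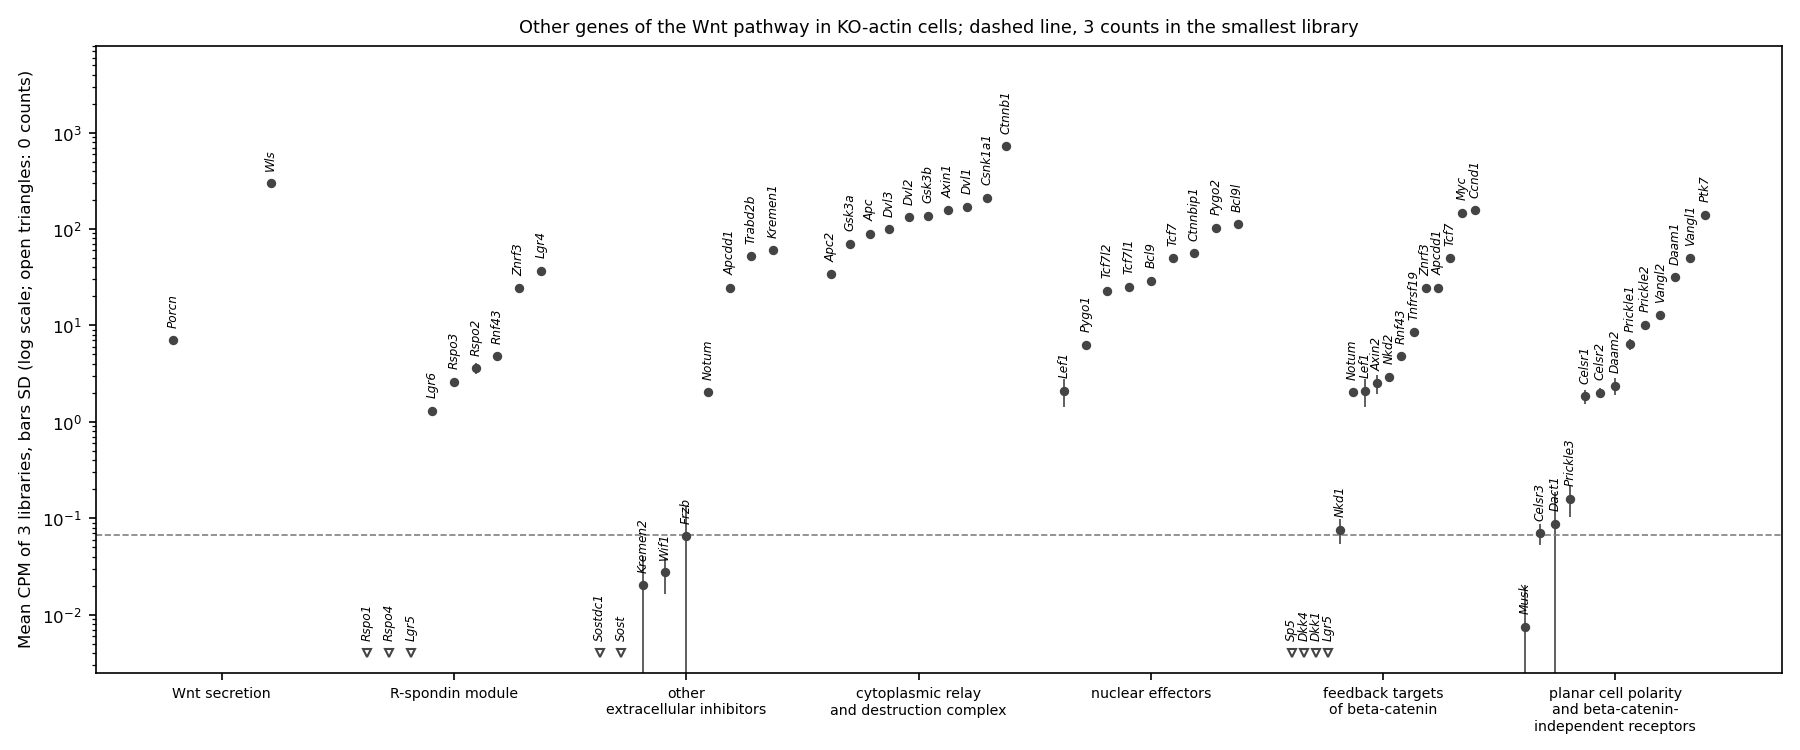
Mean CPM over the 3 libraries on a log axis, with bars for the SD, for the genes of 7 lists of the Wnt pathway; open triangles mark 0 counts and the dashed line 3 counts in the smallest library. The 10 genes of the cytoplasmic list and the 9 of the nuclear list lie above the line, whereas 3 of 9 genes of the R-spondin module and 4 of 16 feedback targets were at 0.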

How the data were processed

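Poly(A) RNA was sequenced from 3 KO-actin libraries. The deposited values are raw, unnormalized read counts for each Ensembl gene. The submitters' processing notes name Trimmomatic, FastQC, HISAT2 and HTSeq and the builds mm10 and GRCm38; versions, annotation and strand setting are not given in the sources used here, so genes overlapped on either strand are uncertain. Symbols were matched for 46005 of 46603 genes; exons came from GENCODE M21 on GRCm38. CPM used TMM factors (edgeR 4.0.16, R 4.3.3) from genes with 10 or more counts in each library, with DESeq2 1.42.0 size factors as an alternative. The chi-square test (2 degrees of freedom, scipy 1.17.1, Python 3.11.15) was first checked on simulated counts. Only 3 libraries enter: a two-sided exact sign-flip permutation test between genes cannot go below 0.25, so genes were compared by whether their libraries overlap. All members, the pathway lists and markers were eligible to be named, and members and lists were chosen with earlier results of these data known.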

Additional observations from a re-analysis of the deposited data

How the results depend on the processing

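No paired analysis was possible because the libraries hold 1 condition and no groups share replicate numbers. The number of members above the floor, 25, lay between 24 and 30 with more than 10 counts or any count required and from 25 to 27 without any 1 replicate. The number with a mean of at least 1 CPM, 21, did not change with DESeq2 size factors, total counts or the median of the libraries, and was 20 to 21 without any 1 replicate. Steps between neighbours without overlap were 19 of 37, including 3 (below Wnt2b, Sfrp1 and Dkk2) whose higher gene was at or under the floor in a library. They were 12 among members with at least 10 counts in every library, where fewer genes are ordered, and 21 to 23 without any 1 replicate. The leading share among ligands was 51.1% (Wnt10b) with the longest transcript and 51.8% by CPM alone, and 45.6% to 46.6% without any 1 replicate, Wnt10b leading without replicate 1. Among Frizzled receptors Fzd6 led with 35.2% and 36.3% under these settings, and the share was 33.6% to 34.0% without any 1 replicate. The share of Ryk was 72.8% and 49.6% under these settings and 68.0% to 68.6% without any 1 replicate, and that of Sfrp2 was 58.5% by CPM alone and 69.6% to 76.6%. Shifts with length follow from the length used. The share of Dkk3 in the Dkk sum, 59.1%, ranged from 40.8% to 88.7% without any 1 replicate and rests on 0 counts in replicate 1. The number of members varying beyond counting error, 11 of 24, was 11 under other scalings, beside 43.9% of all tested genes. It was 11 of 25 with at least 3 counts, beside 39.2% of all genes, and 9 of 17 with at least 100 counts, beside 51.7%. Without a filter, where Dkk3 and Sfrp1 entered, it was 13 of 34, beside 25.9%. Within bins of GC content, a setting added after seeing the data, it was 8 of 24, beside 30.0%. It was lowest without replicate 2, at 3 of 24 beside 12.5%. Without replicate 1 it was 9 of 25, beside 32.9%, and without replicate 3 it was 8 of 24, beside 34.1%. The mean CPM of the 25 members above the floor moved by less than 1 SD under both other scalings. Depth limits the 18 members that were not above 3 counts in every library.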

Other observations

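Dkk3 had 0 counts in replicate 1 against 21 and 20 in replicates 2 and 3. With no count minimum, the chi-square test gave Dkk3 an adjusted p of 0.00017 and Sfrp1 one of 0.0113, and Ror1 did not pass at 0.0945. Of the 23189 genes tested in this way 25.9% were called. The chi-square is only approximate at counts as low as the 1, 11 and 2 of Sfrp1. Over all 46603 genes, Dkk3 was the only one with 0 counts in one library and at least 20 in both others. The limit of 20 was chosen after the counts of Dkk3 were seen, so this gives no rank of Dkk3 among all genes. Genes with 0 counts in more than 1 library were not searched. With at least 15 in both others there were 3 such genes, 1 with 0 in replicate 1 and 2 with 0 in replicate 3, and with at least 10 there were 3 with 0 in replicate 1 (Dkk3, Insc and Rpl13-ps3), 0 with 0 in replicate 2 and 2 with 0 in replicate 3. No explanation was tested.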
